A study of Mus musculus with 18 samples.

Results

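The genes described here make sterols and fatty acids, or regulate that synthesis through the sterol regulatory element binding proteins (SREBPs). They are 33 listed genes, matched by symbol in a table of 55138 genes. Each symbol matched once, and all 33 passed the filter on low counts at both embryonic stages. The list was chosen by earlier results of these libraries, above all the E9.5 fold changes between genotypes. That comparison is therefore given below as a description, with values and standard errors gene by gene. The number of members past its threshold is given beside the share of all genes. It is given again for other settings, for most of them without that share. Nothing is read from these counts.

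RNA came from mouse embryos whose heads had been removed, in 6 groups of 3 libraries, 18 in all. Wild type embryos and embryos homozygous for HoxB Del(i9-13), an allele of the HoxB cluster, were taken at E9.5. Those taken at E10.5 were wild type, homozygous HoxB Del(i9-13), homozygous HoxB Del(i9-13):Hoxb13hd, which carries both changes, and homozygous Hoxb13hd. The wild type embryos were littermates of mutants. The labels do not say what hd stands for, on which strain the alleles were kept, or whether a replicate was a single embryo or a pool, so the p-values below measure the spread between these libraries. Every E9.5 library was poly(A)-enriched and every E10.5 library was ribo-depleted, so stage and library type cannot be told apart.

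Cholesterol is built from acetyl-CoA through the mevalonate pathway, which yields isoprenoid units that are joined into squalene, closed into lanosterol and trimmed and rearranged into cholesterol. Fatty acid synthesis starts from the same acetyl-CoA, extends it into palmitate and then lengthens and desaturates the chain. Both branches are switched on by SREBP-2 and SREBP-1, which Scap escorts out of the endoplasmic reticulum when sterols are scarce and which Insig proteins hold back when sterols are plentiful. Embryos need this synthesis for membranes and for the cholesterol that is attached to hedgehog ligands.

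The promoters of these genes are shown first, because SREBPs act on them together with NF-Y, a factor that binds CCAAT. RefSeq promoter windows (build GRCm38.p6, 250 bases before to 50 bases after the start site) were at hand for 26 of the 33 genes. Of these, 20 held CCAAT on either strand (76.92%), against 41.06% of the 27025 genes with a window. The E-box CACGTG, which SREBPs can also bind and which reads the same on both strands, was found in Hsd17b7, Insig1, Dhcr7, Sc5d and Scap, 5 of 26 (19.23%, against 8.09% of genes with a window). The sterol regulatory element core TCACNCCAC, searched on both strands, occurred in 1 of 26, Hmgcs1 (3.85%, against 1.44%). These are matches of letters, and they do not show that a factor is bound. A missing match does not show that none is bound, since other forms of these sites were not searched. Fdps, Fdft1, Sqle, Stard4, Scd1, Scd2 and Fads1 had no window and were not searched. No match of one of these motifs overlapped a match of another in the sequences printed here. The 250 bases before the start site are printed for Hmgcs1, the gene with the element core, for Insig1, which has the E-box, and for Msmo1, Nsdhl and Cyp51, which had CCAAT and are among the genes with the smallest p-values at E9.5. Sequences run 5′ to 3′ towards the gene. Capitals mark TCACCCCAC in Hmgcs1, CACGTG in Insig1, and CCAAT, which appears as ATTGG where it lies on the other strand. The windows lie at chr13:119690101-119690350 on the plus strand (Hmgcs1), chr5:28071162-28071411 on the plus strand (Insig1), chr8:64733579-64733828 on the minus strand (Msmo1), chrX:72918271-72918520 on the plus strand (Nsdhl) and chr5:4104698-4104947 on the minus strand (Cyp51).
Hmgcs1: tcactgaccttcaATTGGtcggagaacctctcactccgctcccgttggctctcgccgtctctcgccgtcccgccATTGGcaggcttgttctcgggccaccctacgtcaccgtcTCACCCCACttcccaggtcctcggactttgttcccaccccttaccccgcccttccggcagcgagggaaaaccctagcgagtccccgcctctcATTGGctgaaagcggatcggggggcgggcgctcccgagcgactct
Insig1: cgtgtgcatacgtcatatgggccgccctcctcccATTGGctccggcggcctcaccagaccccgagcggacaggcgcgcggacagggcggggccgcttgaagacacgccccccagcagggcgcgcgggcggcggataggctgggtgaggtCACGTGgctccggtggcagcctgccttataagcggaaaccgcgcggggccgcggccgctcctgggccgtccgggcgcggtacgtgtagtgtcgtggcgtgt
Msmo1: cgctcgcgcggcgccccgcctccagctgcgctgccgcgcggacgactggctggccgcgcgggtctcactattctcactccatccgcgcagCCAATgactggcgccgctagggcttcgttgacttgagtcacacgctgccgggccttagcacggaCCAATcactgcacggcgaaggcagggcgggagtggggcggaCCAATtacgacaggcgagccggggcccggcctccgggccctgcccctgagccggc
Nsdhl: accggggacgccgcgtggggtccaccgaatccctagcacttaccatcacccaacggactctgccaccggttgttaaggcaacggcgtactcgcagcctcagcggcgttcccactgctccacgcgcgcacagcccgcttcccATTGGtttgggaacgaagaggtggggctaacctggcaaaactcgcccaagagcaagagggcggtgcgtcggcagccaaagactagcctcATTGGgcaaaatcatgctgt
Cyp51: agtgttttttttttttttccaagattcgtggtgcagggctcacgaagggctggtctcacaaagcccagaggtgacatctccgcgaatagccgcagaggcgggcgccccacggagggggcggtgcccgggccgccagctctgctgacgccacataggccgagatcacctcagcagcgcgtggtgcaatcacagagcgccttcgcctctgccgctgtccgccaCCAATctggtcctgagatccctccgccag
The element core of Hmgcs1 began 137 bases before its start site, and the E-box of Insig1 began 101 bases before its start site. Msmo1 carried CCAAT at 160, 96 and 55 bases before the start. The members lie on 16 chromosomes, so they are not neighbours as a set. The largest number on a single chromosome is 4, on chromosome 11 (Srebf1, Acly, Acaca and Fasn), and Nsdhl and Ebp lie on the X chromosome.

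Library totals ran from 29829820 to 35934843 counts at E9.5 and from 19333138 to 25722951 counts at E10.5. Hoxb13 was higher in the groups with Del(i9-13). At E9.5 it was between 37.7 and 45.1 CPM (counts scaled to a common library size, with edgeR's TMM factors) in Del(i9-13) and at most 0.132 CPM in wild type. At E10.5 its mean was 9.6 CPM (SD 3.3) in Del(i9-13) and 11.05 CPM (SD 1.06) in Del(i9-13):Hoxb13hd. The E10.5 mean was 0.434 CPM (SD 0.607) in wild type and 0.051 CPM (SD 0.053) in Hoxb13hd. Trunk markers were all detected, with summed levels between 247 and 499 CPM. Of 10 head markers 3 passed the count filter, and 2 to 6 of the 10 had no count in a given library. The library of Del(i9-13) replicate 1 at E10.5 stood apart, with 2376 CPM summed over 16 liver bud and visceral endoderm markers, against 55.4 to 731 CPM in the 11 other E10.5 libraries. The members' calls and median for Del(i9-13) at E10.5, and the values of some genes, are also given without it. Other E10.5 values of this group include it, as do its counts of negative or non-overlapping members. Xist, which is transcribed from the inactive X chromosome, was near 1 CPM in all 3 E9.5 Del(i9-13) libraries and at 1.26, 1474 and 1556 CPM in the wild type ones, so the E9.5 groups are not matched in Xist. At E10.5 its mean was 200 CPM (SD 346) in wild type and 417 CPM (SD 367) in Del(i9-13). It was 380 CPM (SD 326) in Del(i9-13):Hoxb13hd and 239 CPM (SD 398) in Hoxb13hd, so Xist varied widely within each E10.5 group.

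Levels between genes are compared per transcript length, in FPKM (fragments scaled to transcript length and library depth). In E9.5 wild type embryos the 33 genes spanned from 1.82 ± 0.599 FPKM (SD, n = 3) for Acss2, which makes acetyl-CoA from acetate, to 264 ± 6.16 FPKM for Scd2, a stearoyl-CoA desaturase. Fdps, Acly and Hmgcs1 came next to Scd2 with 123 ± 7.96, 113 ± 5.92 and 102 ± 10.4 FPKM, and Acly and Hmgcs1 lay within their spread of each other. Among the regulators Srebf2 had the highest level, 64.2 ± 2.97 FPKM, and Srebf1 the lowest, 16 ± 0.272 FPKM. At E10.5 Scd2 was again at the top with 183 ± 11.7 FPKM, followed by Hmgcs1 with 113 ± 2.27 and Acly with 111 ± 1.96 FPKM.

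**Figure D1:**
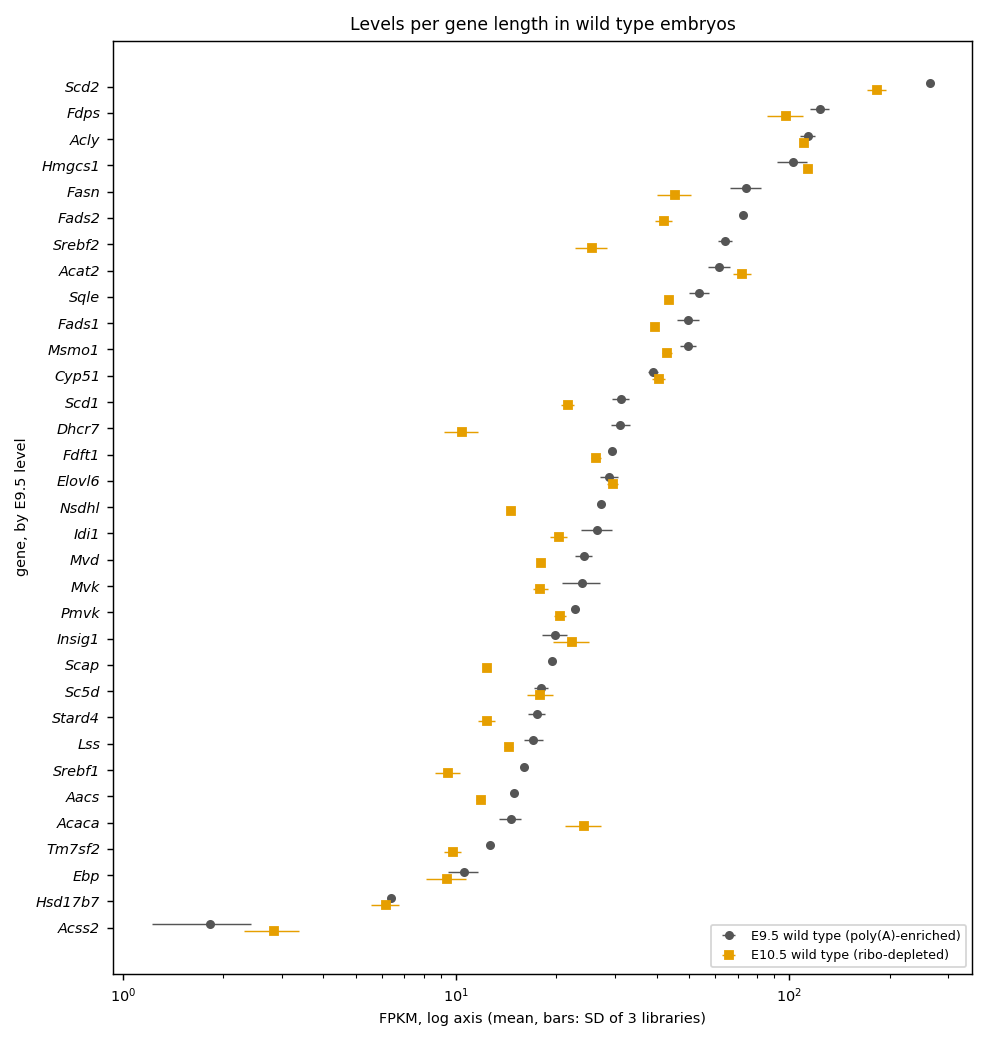
FPKM of the 33 genes in wild type embryos at E9.5 (circles) and E10.5 (squares), on a log axis, as the mean of 3 libraries with the SD as bars. Scd2 has the highest level and Acss2 the lowest at both stages. Stage and library type coincide.

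In wild type embryos the FPKM of 22 genes was higher in every E9.5 library than in every E10.5 library, and that of 3 genes (Acat2, Acaca and Acss2) was lower. Over the 15580 genes tested at both stages these shares were 43.1% and 18.7%. The 2 members with the widest ratio were Dhcr7, the last enzyme of one branch to cholesterol, with 31.1 ± 2.03 against 10.4 ± 1.22 FPKM (2.99-fold), and Srebf2, which encodes SREBP-2, with 64.2 ± 2.97 against 25.6 ± 2.87 FPKM (2.51-fold). These values are set side by side with no test, since the library type differs in the same way.

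At E9.5 most of the 33 listed genes had lower levels in Del(i9-13) embryos than in wild type, while Ebp, Scap and Acss2 had differences close to 0. The fitted log2 difference was negative for 32 of 33 genes, with a median of −0.48, against 0.0018 over all 16041 genes tested, of which 49.5% were below 0. By the threshold used throughout (adjusted p of 0.05, edgeR's quasi-likelihood test with Benjamini-Hochberg adjustment over all genes), 20 members were called lower and none higher, where 0.268% of all genes were called lower and 0.0935% higher. In 28 members all 3 Del(i9-13) libraries were below all 3 wild type libraries and in none above, where all genes gave 9.83% and 9.06%. Because this contrast chose the members, these counts support nothing further. In RNA of headless embryos, which hold many cell types, fewer cells of a type and less RNA per cell cannot be told apart.

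Of the 5 genes of the first steps, from acetyl-CoA to the activated isoprene unit, Hmgcs1 and Mvd had the widest differences at E9.5. Hmgcs1 (ENSMUSG00000093930, chr13:119690379-119708260), which condenses acetyl units into HMG-CoA, was at 456, 413 and 364 CPM in wild type replicates 1 to 3 and at 283, 271 and 241 CPM in Del(i9-13), a log2 difference of −0.63 (SE 0.092). Mvd, which makes isopentenyl diphosphate, was at 57.1, 52.2 and 52 CPM in wild type and 36.5, 38.8 and 35.7 CPM in Del(i9-13), −0.54 (SE 0.064). In both the groups did not overlap. The other 3 genes of this stretch had smaller differences: Acat2, which joins the first acetyl units, had a log2 difference of −0.28, and the kinases Mvk and Pmvk had −0.29 and −0.38.

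Both genes of the isoprenoid steps had lower values in Del(i9-13). Idi1, which isomerises isopentenyl diphosphate, had a log2 difference of −0.70 (SE 0.11). Fdps, which joins isoprene units into farnesyl diphosphate, was at 211, 199 and 183 CPM in wild type and 119.8, 126 and 116 CPM in Del(i9-13), −0.71 (SE 0.065). The highest Del(i9-13) library was below the lowest wild type library for both genes.

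The 3 genes that make squalene and lanosterol also had lower values. Fdft1, the squalene synthase, was at 112, 104 and 105 CPM in wild type and 74.7, 78 and 72.7 CPM in Del(i9-13), −0.51 (SE 0.053). Sqle, which oxidises squalene, had a log2 difference of −0.55 (SE 0.068). Lss, which closes the sterol rings, was at 107, 97.5 and 92.9 CPM in wild type and 62, 59.7 and 58 CPM in Del(i9-13), −0.73 (SE 0.063). Lss had the widest difference of the 3, and none of the 3 genes had overlapping groups.

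Among the 8 genes between lanosterol and cholesterol was the widest difference of all 33, that of Tm7sf2. Tm7sf2 (ENSMUSG00000024799, chr19:6062821-6068373), a sterol C14 reductase, was at 20.9, 20.9 and 22.2 CPM in wild type and 11.1, 13.3 and 12.3 CPM in Del(i9-13), −0.80 (SE 0.093). Cyp51, the lanosterol demethylase upstream of it, was at 201, 189.9 and 184 and 124, 113 and 115 CPM, −0.71 (SE 0.058). Msmo1, which oxidises the C4 methyl groups, was at 129, 113 and 114 and 72.5, 73.5 and 66.4 CPM, −0.75 (SE 0.068). For each of these the 3 Del(i9-13) libraries were the lowest. Nsdhl (ENSMUSG00000031349, chrX:72918557-72958514), which removes the C4 carboxyl group, was at 71.8, 73 and 73.9 CPM in wild type and 44.3, 43.9 and 43.1 CPM in Del(i9-13), −0.74 (SE 0.048). The libraries of each group were close together. The wild type library with little Xist was the lowest of its group. Sc5d, a desaturase of the sterol ring, had a log2 difference of −0.48 (SE 0.062). Dhcr7, the sterol C7 reductase, was at 95.5, 88.4 and 85.5 and 62.8, 57.1 and 59.1 CPM, −0.59 (SE 0.061). The groups did not overlap for these 3 genes either.

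The 2 other genes of this stretch had smaller values. Hsd17b7, the C3 ketoreductase, had a log2 difference of −0.38 (SE 0.071) with groups that did not overlap. Ebp, the sterol isomerase, was at 18.3, 19.2 and 17.1 CPM in wild type and 18.2, 17.5 and 19.3 CPM in Del(i9-13), 0.0085 (SE 0.085). Ebp was the single member with a positive value, and its groups overlapped.

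Among the regulators, Insig1 had the widest difference. Insig1 (ENSMUSG00000045294, chr5:28071363-28078662), which holds SREBPs in the endoplasmic reticulum and is itself an SREBP target, was at 65.7, 72.1 and 60.8 CPM in wild type and 40.7, 38.2 and 36.5 CPM in Del(i9-13), −0.78 (SE 0.075). Srebf2, which encodes SREBP-2, was at 342, 342 and 326 and 267, 249 and 261 CPM, −0.38 (SE 0.051). Neither gene had overlapping groups. Srebf1, which encodes SREBP-1, was at 82.6, 79.9 and 82.6 and 75.4, 66 and 80.6 CPM, −0.14 (SE 0.072). Scap, the escort of SREBPs, was at 102, 101 and 98.6 and 97.9, 96.2 and 99 CPM, −0.039 (SE 0.045). For Srebf1 and Scap the groups overlapped. Stard4, a sterol carrier, had −0.39 (SE 0.10), without overlap.

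Of the 10 genes that supply acetyl-CoA or build and modify fatty acids, all had negative values at E9.5, and their median log2 difference was −0.39, beside −0.57 over the 18 sterol enzymes. Aacs, which activates acetoacetate for lipid synthesis, was at 62.5, 59.4 and 59.2 CPM in wild type and 39, 41.5 and 38.1 CPM in Del(i9-13), −0.61 (SE 0.058). Acly, which makes acetyl-CoA from citrate, was at 648, 595 and 584 and 493, 469 and 479 CPM, −0.34 (SE 0.055). Scd1 (ENSMUSG00000037071, chr19:44394455-44407879), a stearoyl-CoA desaturase, was at 194, 175 and 173 and 113, 105 and 108 CPM, −0.74 (SE 0.06). The 3 genes were lower in every Del(i9-13) library, and Scd1 had the widest difference of the fatty acid genes. Its paralog Scd2 was at 1753, 1689 and 1658 CPM in wild type and 1266, 1143 and 1298 CPM in Del(i9-13), −0.46 (SE 0.057). Fads2, a desaturase of polyunsaturated chains, had −0.37 (SE 0.053). These also had no overlap.

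The other 5 fatty acid genes had values between −0.48 and −0.065. Fasn, the fatty acid synthase, was at 852, 842 and 698 CPM in wild type and 601, 433 and 676 CPM in Del(i9-13), −0.48 (SE 0.18). Its libraries spread widely within each group, and Del(i9-13) replicate 2 was the lowest. Elovl6, which elongates palmitate, was at 204, 202 and 179 and 152, 136 and 149 CPM, −0.42 (SE 0.069). Acaca, the acetyl-CoA carboxylase, had −0.28 (SE 0.22) and Acss2 −0.065 (SE 0.24). The groups overlapped for Acaca and Acss2, but not for Fasn, Elovl6 or Fads1, a second desaturase of polyunsaturated chains with −0.33 (SE 0.065).

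**Figure D2:**
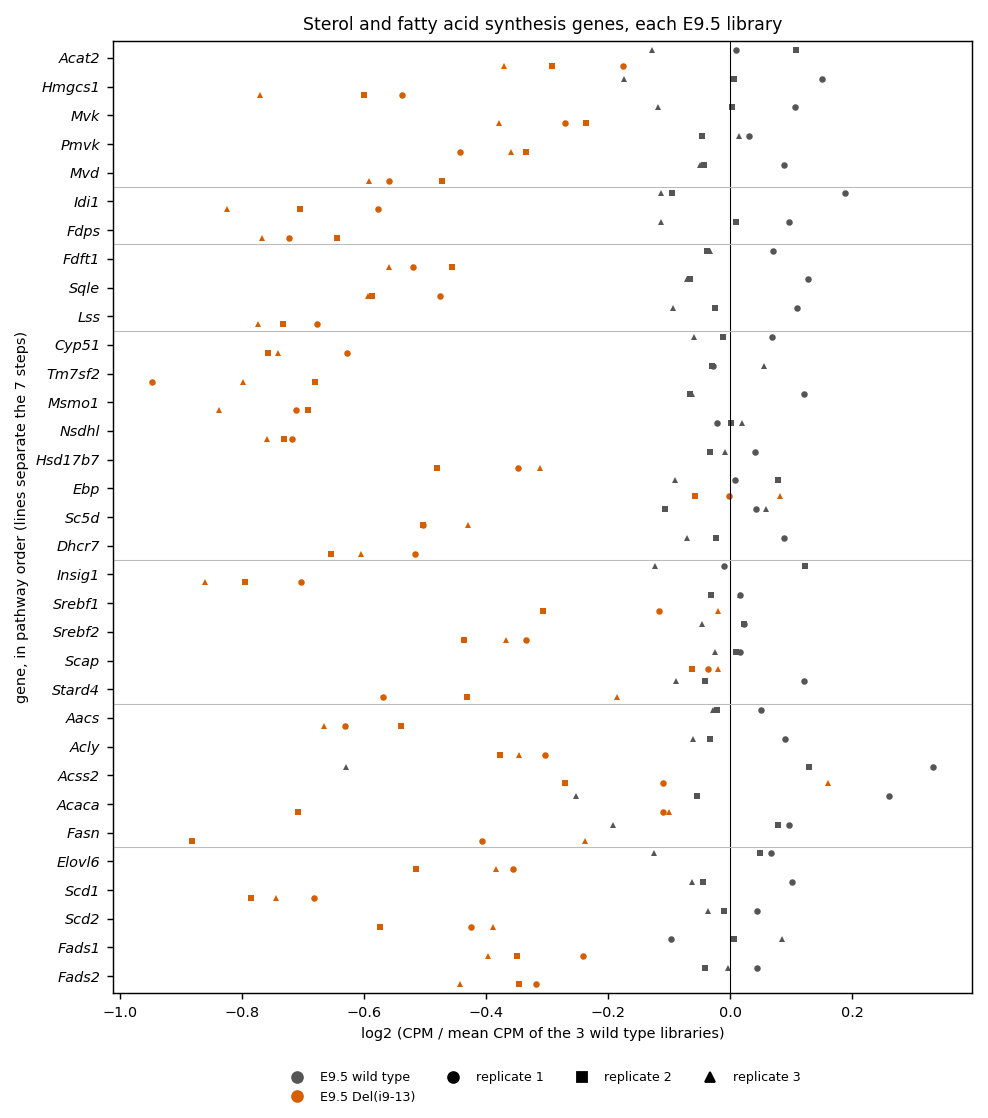
Each point is 1 E9.5 library, as log2 of its CPM over the mean CPM of the 3 wild type libraries, for the 33 genes in pathway order. Wild type is grey and Del(i9-13) orange, and shapes mark replicates. For 28 genes all orange points lie left of all grey points. The groups overlap for Ebp, Srebf1, Scap, Acss2 and Acaca.

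Averaged over the 33 genes, the log2 level relative to the mean of the 6 E9.5 libraries was 0.31, 0.23 and 0.16 in wild type replicates 1 to 3. The Del(i9-13) replicates had −0.20, −0.27 and −0.23. The wild type library with little Xist, replicate 1, had the highest value of the 6, and with Xist as a covariate the median log2 difference over the members was −0.54. Xist varied little between the Del(i9-13) libraries, so that fit in effect set them against wild type replicate 1. With that covariate 14 members passed the threshold in place of 20, and leaving out replicate 1 of either group left 13. The share of all genes called in these fits is not given, so nothing is read from these counts.

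Genes of the same pathways outside the list had median differences nearer to 0 at E9.5. The members were chosen by their E9.5 values, so genes left out would tend to lie nearer to 0 in any case. Nothing is read from this difference between the lists. Of 17 further sterol genes 16 were tested, with a median log2 difference of −0.053, and 2 were called lower, beside 0.268% of all genes. Of the 16, 10 were negative and 6 positive. Their groups did not overlap in 6 that were lower and 1 that was higher, where all genes gave 9.83% and 9.06%. Of 19 further fatty acid genes 16 were tested, with a median of −0.10 and 1 called lower, Tecr, a reductase of the elongation cycle (−0.32 (SE 0.049)). Here 12 were negative and 4 positive, and again 6 were lower and 1 higher without overlap. None of 8 genes of sterol export and the LXR receptors, which sense sterol excess, was called. Their median was 0.050, and 1 of them passed an unadjusted p of 0.05.

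Markers of other cells also differed from wild type in level at E9.5. Summed over 12 neuron markers, wild type libraries had 156, 153 and 124.5 CPM, and Del(i9-13) libraries had 97.0, 80.4 and 67.8 CPM. All 12 were negative, with a median log2 difference of −0.84, 1 (Cntn2, an adhesion molecule of axons) was called, 11 passed an unadjusted p of 0.05, and in 10 the groups did not overlap. They did not overlap in this sum either. Liver bud and visceral endoderm markers summed to 48.6, 52.1 and 157 CPM in wild type and to 150.3, 348 and 1493 CPM in Del(i9-13). Their median log2 difference was 2.90 over 16 markers, and 15 were positive but none was called, while 5 passed an unadjusted p of 0.05. In the same order of libraries, the mean log2 level of the members was 0.31, 0.23 and 0.16 in wild type and −0.20, −0.27 and −0.23 in Del(i9-13). Glycolysis and hypoxia genes were positive in 13 of 14, with none called and 10 at an unadjusted p of 0.05. The part of these cells in the members' difference was not tested. No share of all genes at an unadjusted p of 0.05 is given for E9.5, so nothing is read from counts at that threshold.

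At E10.5 the deletion without hd was tested in other embryos. The members were again mostly below wild type: 29 of 33 values were negative, where 49.5% of all 17202 genes tested were, and the median log2 difference was −0.14, against 0.0020 over all genes. By edgeR's quasi-likelihood test 1 member, Scd1, was called lower and none higher, beside 0.244% of all genes called in each direction. At an unadjusted p of 0.05, 11 were lower and none higher, beside 4.69% and 4.44% of all genes. In 13 members the 3 Del(i9-13) libraries were below the 3 wild type libraries, and in none above, beside 6.68% and 6.37% of all genes. The differences at the 2 stages are not compared in size, since the list was chosen for its E9.5 values. That sterol genes were mostly negative here was also known when the list was made.

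Scd1 was at 131, 144 and 145 CPM in the 3 wild type libraries and at 109, 110.5 and 105 CPM in Del(i9-13), a log2 difference of −0.37 (SE 0.057, adjusted p = 0.0083). Every Del(i9-13) library was below every wild type library. Without Del(i9-13) replicate 1 the difference was −0.38 (adjusted p = 0.0097). The call was lost when wild type replicate 2 (adjusted p = 0.0652), wild type replicate 3 (0.0537) or Del(i9-13) replicate 3 (0.0771) was left out, and when only the 2 groups compared were fitted (0.126).

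The next smallest p-values belonged to Lss, Elovl6, Acly and Scd2, and none of these passed the threshold. Lss was at 94.1, 96.7 and 92.5 CPM in wild type and 83, 76.5 and 74.1 CPM in Del(i9-13), −0.28 (SE 0.062, adjusted p = 0.0846). Elovl6 was at 214, 221 and 205 and 181, 185 and 179.6 CPM, −0.23 (SE 0.055, adjusted p = 0.119). Acly was at 656, 666 and 651 and 583, 574 and 538 CPM, −0.22 (SE 0.057, adjusted p = 0.154). In these 3 genes the groups did not overlap. Scd2 was at 1288, 1292 and 1445 CPM in wild type and 1274, 929 and 992 CPM in Del(i9-13), −0.33 (SE 0.10, adjusted p = 0.27). Del(i9-13) replicate 1 was just below the wild type libraries and replicates 2 and 3 were far below them.

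The library that stood apart bore on several of these values. Without Del(i9-13) replicate 1, 4 members were called lower: Scd1, Scd2 (−0.48, adjusted p = 0.00487), Lss (−0.33, adjusted p = 0.0171) and Fasn (−0.53, adjusted p = 0.0462), where that fit called 0.983% of all genes lower. Fasn was at 482, 550.5 and 607 CPM in wild type and 616, 379 and 379 CPM in Del(i9-13), where replicate 1 was above all wild type libraries and replicates 2 and 3 below them. The median over the members was −0.11 without it. DESeq2 with all libraries called 4 members lower, Scd1, Lss, Acly and Elovl6, and 0.995% of all genes.

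Sterol enzymes and fatty acid genes split the Del(i9-13) libraries differently at E10.5. The mean log2 level of the 18 sterol enzymes, relative to the mean of the 12 libraries, was −0.16, −0.032 and −0.071 in Del(i9-13) replicates 1 to 3. Wild type replicates had 0.035, 0.056 and 0.031. The 10 fatty acid genes had −0.045, −0.16 and −0.19 in the Del(i9-13) replicates, against −0.0041, 0.045 and 0.12 in wild type. Replicate 1 was thus the lowest of the 3 for sterol enzymes and the highest for fatty acid genes. Over all 33 genes the mean level was −0.097, −0.084 and −0.12 in Del(i9-13), below each of the 9 other E10.5 libraries, which ranged from −0.0030 to 0.075.

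Along the sterol pathway at E10.5 the values of uncalled genes were small. Among the early enzymes, Hmgcs1 was at 525, 526 and 532 CPM in wild type and 461, 489 and 488 CPM in Del(i9-13), −0.14 (SE 0.058, adjusted p = 0.486). Its groups did not overlap, whereas those of Acat2 (−0.05), Mvk (−0.031), Pmvk (0.048) and Mvd (−0.051) did. Of the next steps, Idi1 (−0.27) and Sqle (−0.15) had groups that did not overlap, and Fdps (−0.14) and Fdft1 (−0.086) had groups that did. Cyp51 was at 234, 222 and 223 CPM in wild type and 178, 206 and 208 CPM in Del(i9-13), −0.20 (SE 0.072, adjusted p = 0.376). Nsdhl was at 43.3, 46.1 and 46.1 and 40.3, 36.4 and 36.9 CPM, −0.25 (SE 0.086, adjusted p = 0.346). Both had groups that did not overlap, as had Tm7sf2 (−0.15) and Msmo1 (−0.17). Hsd17b7 (−0.033), Ebp (−0.11), Sc5d (−0.15) and Dhcr7 (−0.093) overlapped.

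No regulator was called in Del(i9-13) at E10.5. Insig1 was at 89.3, 92.1 and 74 CPM in wild type and 83.9, 97.2 and 84.4 CPM in Del(i9-13), 0.056 (SE 0.094, adjusted p = 0.91). Srebf2 was at 131, 139 and 168 and 160.4, 128 and 127 CPM, −0.076 (SE 0.11, adjusted p = 0.888). Scap was at 68.9, 70.8 and 68.8 and 73.5, 66.3 and 60.2 CPM, −0.06 (SE 0.076, adjusted p = 0.868). All 3 overlapped with wild type. Srebf1 (0.12) and Stard4 (−0.079) overlapped as well. Of the remaining fatty acid genes, Fads1 had −0.10 without overlap, and Aacs (−0.14), Acaca (−0.15), Fads2 (−0.13) and Acss2 (0.12) had overlapping groups.

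The enzymes with the smallest p-values at E9.5 had these levels in all 12 E10.5 libraries. Mvd was at 45.4, 47.1 and 46.8 CPM in wild type, 43.6, 45 and 45.9 in Del(i9-13), 47.5, 49.5 and 44.1 in Del(i9-13):Hoxb13hd and 45.1, 45 and 45.6 in Hoxb13hd. Fdps was at 190.4, 196 and 157 CPM in wild type, 135, 191 and 167 in Del(i9-13), 156, 185 and 134 in Del(i9-13):Hoxb13hd and 134, 176 and 168 in Hoxb13hd. Fdft1 was at 115, 109.5 and 109 CPM in wild type, 97.7, 113 and 104 in Del(i9-13), 112, 116 and 104 in Del(i9-13):Hoxb13hd and 103, 110.4 and 114 in Hoxb13hd. Each mutant group overlapped with wild type in these 3 genes. Tm7sf2 was at 19.3, 17.6 and 19 CPM in wild type, 15.7, 17 and 17.6 in Del(i9-13), 14.4, 15.9 and 15.4 in Del(i9-13):Hoxb13hd and 18.3, 15.7 and 21.6 in Hoxb13hd. Msmo1 was at 118, 118 and 121 CPM in wild type, 89.2, 116 and 113 in Del(i9-13), 121, 125 and 109 in Del(i9-13):Hoxb13hd and 102, 112 and 122 in Hoxb13hd. Both groups with the deletion lay below wild type for Tm7sf2, and Del(i9-13) alone did for Msmo1. Dhcr7 was at 26.7, 32.8 and 35.8 CPM in wild type, 35.9, 26.4 and 27.1 in Del(i9-13), 40.7, 33.9 and 41.5 in Del(i9-13):Hoxb13hd and 41.7, 34.1 and 37.2 in Hoxb13hd. Aacs was at 53.1, 55.5 and 57.1 CPM in wild type, 55.1, 46.9 and 48.2 in Del(i9-13), 60.3, 62.2 and 60.8 in Del(i9-13):Hoxb13hd and 61.8, 55.3 and 53.5 in Hoxb13hd. Every mutant group overlapped with wild type for Dhcr7, and the Del(i9-13):Hoxb13hd libraries were above all wild type libraries for Aacs.

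The groups with hd completed the values of the other genes. Cyp51 was at 219.9, 241 and 214 CPM in Del(i9-13):Hoxb13hd and 208, 218 and 216 CPM in Hoxb13hd. Lss was at 84.8, 94.8 and 93.1 CPM in Del(i9-13):Hoxb13hd and 92.3, 92.2 and 96.1 CPM in Hoxb13hd. Hoxb13hd lay below wild type for Cyp51, and for Lss both groups overlapped with wild type. Elovl6 was at 183, 183 and 187 CPM in Del(i9-13):Hoxb13hd and 193, 186 and 180.1 CPM in Hoxb13hd. Acly was at 618, 629 and 629.7 CPM in Del(i9-13):Hoxb13hd and 626, 596 and 612 CPM in Hoxb13hd. For Elovl6 and Acly all 9 mutant libraries were below the 3 wild type ones. Scd2 was at 1449, 1423 and 1495 CPM in Del(i9-13):Hoxb13hd and 1455, 1369 and 1384 CPM in Hoxb13hd, overlapping with wild type in both groups. Nsdhl was at 48.4, 58.3 and 57.6 CPM in Hoxb13hd, above wild type. Among the regulators, Srebf1 was at 71.7, 58.2 and 53.6 CPM in Del(i9-13). In Del(i9-13):Hoxb13hd, Insig1 was at 76.1, 81.3 and 69.8 CPM, Srebf2 at 177, 167 and 188 CPM and Scap at 70.3, 80.3 and 79.7 CPM. All 3 overlapped with wild type in that group.

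**Figure D3:**
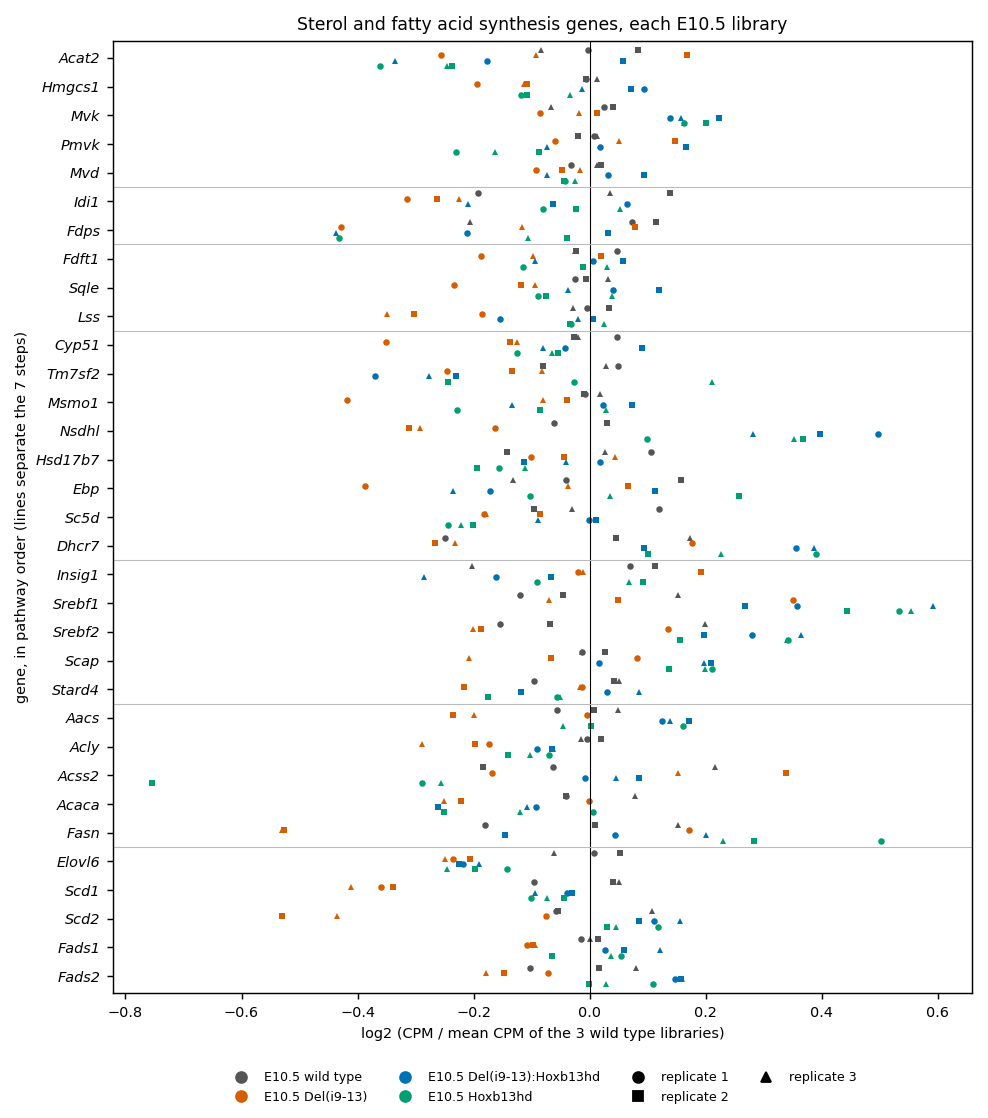
Each point is 1 E10.5 library, as log2 of its CPM over the mean CPM of the 3 wild type libraries, for the 33 genes in pathway order. Wild type is grey, Del(i9-13) orange, Del(i9-13):Hoxb13hd blue and Hoxb13hd green, and shapes mark replicates. Orange points lie left of all grey points in 13 genes, among them Scd1, Lss and Nsdhl.

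Outside the list, 1 of the 16 further sterol genes tested was called in Del(i9-13) at E10.5, and it was lower, beside 0.244% of all genes. None of 16 further fatty acid genes or 8 genes of sterol export was called. At an unadjusted p of 0.05, 2 further sterol genes were lower and none higher, beside 4.69% and 4.44% of all genes. By the same measure 1 further fatty acid gene was lower and 1 higher, and 1 export gene was higher. Neuron markers, which were lower with the deletion at E9.5, had a median log2 difference of 0.0064 at E10.5, and their sums overlapped (380 to 611.5 CPM in wild type, 475.9 to 571.5 CPM in Del(i9-13)). Liver bud and visceral endoderm markers had a median of 1.36, with 15 of 16 positive and none called, and 2 at an unadjusted p of 0.05. Glycolysis and hypoxia genes were negative in 11 of 13, with none called and 2 at an unadjusted p of 0.05. Their part in the members' values was not tested.

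With hd in addition to the deletion, the members' median lay near 0 against wild type. In Del(i9-13):Hoxb13hd against wild type 16 values were negative and 17 positive, and the median was 0.0012. No member was called, beside 0.401% of all genes called, and at an unadjusted p of 0.05, 2 were lower and 5 higher, beside 6.06% and 6.47% of all genes. DESeq2 called 2, Nsdhl higher and Elovl6 lower, and 2.1% of all genes in either direction. In 4 members the groups did not overlap and the mutant was lower, and in 6 it was higher, where all genes gave 10.3% and 11.2%. Nsdhl came closest to the threshold, with 63.8, 59.4 and 54.9 CPM in Del(i9-13):Hoxb13hd, 0.39 (SE 0.085, adjusted p = 0.0731). Each of these libraries was above every wild type library. Scd1 was at 136, 137 and 131 CPM, −0.055 (SE 0.057, adjusted p = 0.74), and overlapped with wild type. Neuron markers were positive in 8 of 12 here, liver bud and visceral endoderm markers in 8 of 16, and glycolysis and hypoxia genes in 4 of 13, with none called.

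Hoxb13hd alone gave 1 called member, Srebf1, which was higher, where 1.42% of all genes were called higher and 1.59% lower, or 3.01% together. Srebf1 (ENSMUSG00000020538, chr11:60199089-60222581) was at 51.7, 54.4 and 62.5 CPM in wild type and 81.3, 76.4 and 82.5 CPM in Hoxb13hd, 0.51 (SE 0.11, adjusted p = 0.0328). The groups did not overlap, and Del(i9-13):Hoxb13hd libraries, at 72, 67.7 and 84.7 CPM, were also above wild type (0.41 (SE 0.11, adjusted p = 0.161)). The call was lost on leaving out any single library of the compared groups, with adjusted p from 0.0526 without Hoxb13hd replicate 1 to 0.159 without wild type replicate 1, with Xist as a covariate (0.50, adjusted p = 0.0615), and in limma on log2(FPKM + 0.1), filtered (0.48, 0.0523) or not (0.108), and on log2(FPKM + 1) (0.44, 0.0523). It was made in 6 of 16 alternatives. Of the 33 members 20 were negative and 13 positive in Hoxb13hd, with a median of −0.031. At an unadjusted p of 0.05, 4 were lower and 5 higher, 9 of 33, beside 20.4% of all genes in either direction.

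Srebf2, Scap and Insig1 also had positive values in Hoxb13hd without a call, that of Insig1 below its standard error. Srebf2 was at 185, 163 and 185 CPM, 0.28 (SE 0.11, adjusted p = 0.16), and Scap at 80.5, 76.4 and 79.8 CPM, 0.18 (SE 0.076, adjusted p = 0.199). Insig1 was at 79.95, 90.8 and 89.2 CPM, 0.025 (SE 0.094, adjusted p = 0.914). Of these 3, Scap had groups that did not overlap. Among the enzymes the values went both ways without a call: Nsdhl had 0.28 (SE 0.085, adjusted p = 0.0923) and Elovl6 −0.19 (SE 0.055, adjusted p = 0.0736), both without overlap. In 8 members all Hoxb13hd libraries were below wild type and in 5 above, beside 12.6% and 12.8% of all genes. Scd1 was at 130.3, 136 and 133 CPM, −0.073 (SE 0.057, adjusted p = 0.519), with overlapping groups. Nr1h2, an LXR receptor outside the list, was called higher in Hoxb13hd (0.42 (SE 0.10, adjusted p = 0.0475)), a call made in 4 of 16 alternatives. Neuron markers were negative in 12 of 12 in Hoxb13hd, with a median of −0.71 and 3 called (Dcx, Elavl4 and Nefl), and summed to 343, 209 and 350.3 CPM there. All 12 passed an unadjusted p of 0.05. Liver bud and visceral endoderm markers were negative in 16 of 16, with a median of −1.81, none called, 4 at an unadjusted p of 0.05 and 7 without overlap. Glycolysis and hypoxia genes were positive in 10 of 13, with a median of 0.29, 7 at an unadjusted p of 0.05 and 1 called, Pfkl, a phosphofructokinase. The part of these markers in the members' values was not tested.

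Within hd embryos the deletion could be examined again, in libraries that neither Del(i9-13) comparison used. In Del(i9-13):Hoxb13hd against Hoxb13hd 13 members were negative and 20 positive, and the median was 0.039, against −0.0098 over all genes, of which 52.3% were negative. None was called, beside 0.959% of all genes, and at an unadjusted p of 0.05, 1 was lower and 4 higher, beside 6.41% and 8.8%. The groups did not overlap in 1 member that was lower (Fasn, −0.30) and 5 that were higher, where all genes gave 10.3% and 12.2%. The 5 were Hmgcs1 (0.14), Pmvk (0.20), Sc5d (0.20), Acss2 (0.46) and Fads2 (0.11). DESeq2 made no call among the members either, beside 3.98% of all genes. Neuron markers were positive in 12 of 12 in this comparison, with a median of 0.88, no overlap in any of the 12, and 1 called, Stmn2. Liver bud and visceral endoderm markers were positive in 13 of 16, with a median of 1.46 and 10 without overlap, and glycolysis and hypoxia genes were negative in 12 of 13, with a median of −0.33. No gene of these 2 lists was called, while 5 and 8 genes passed an unadjusted p of 0.05. Their part in the members' values was not tested.

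An interaction term compared the deletion's effect between embryos that carry hd and embryos that do not. It was positive for 28 of 33 members, where 50.3% of all genes were negative, and the median was 0.17, against −0.0015 over all genes. No member passed the threshold, beside 0.523% of all genes, and 12 were positive and none negative at an unadjusted p of 0.05, beside 6.57% and 5.14% of all genes. DESeq2 called 4, and 1.73% of all genes. The interaction holds the E10.5 difference of Del(i9-13) from wild type with its sign turned, which was known to be mostly negative when the list was made, so its sign is no independent result. Neuron markers were positive in 12 of 12 in the same term, with a median of 0.89, none called and 9 at an unadjusted p of 0.05. Glycolysis and hypoxia genes were negative in 11 of 13 and liver bud and visceral endoderm markers in 9 of 16, with none called. Their part in the members' values was not tested. Scd1 had the smallest adjusted p: its difference was −0.37 without hd and 0.018 with it, an interaction of 0.39 (SE 0.081, adjusted p = 0.0606). It passed in 6 of 21 alternatives, among them DESeq2 (adjusted p = 0.00111) and the fit without Del(i9-13) replicate 1 (0.0393). Hmgcs1 went from −0.14 without hd to 0.14 with it, and neither pair of groups overlapped, with an interaction of 0.28 (SE 0.083, adjusted p = 0.202). Over the list, 18 members were negative without hd and positive with it, 10 were negative in all 3 deletion comparisons, and among these 10 were Idi1, Lss, Tm7sf2 and Fasn.

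**Figure D4:**
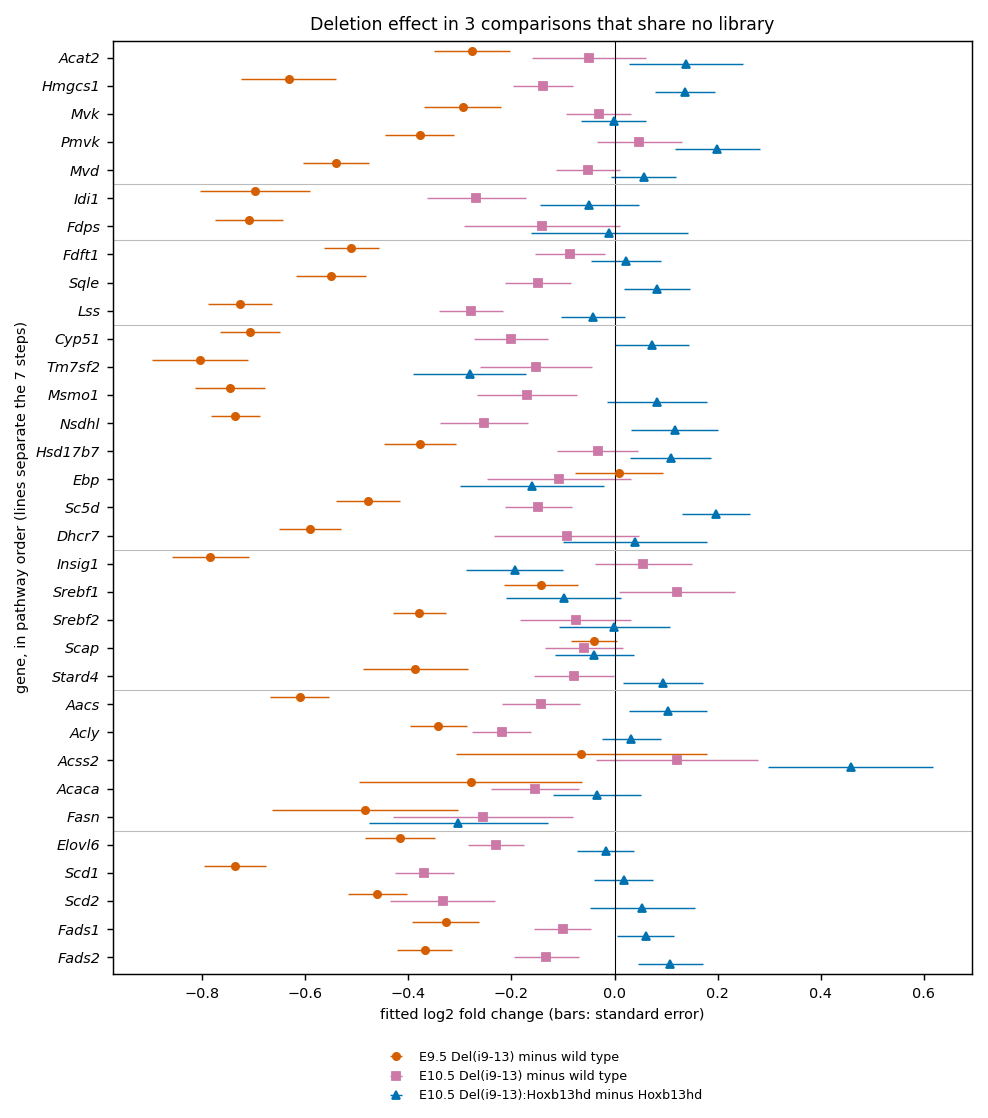
Fitted log2 fold change with its standard error for the deletion at E9.5 (circles), at E10.5 (squares) and at E10.5 in Hoxb13hd embryos (triangles), for the 33 genes in pathway order. The 3 comparisons share no library. Medians are −0.48, −0.14 and 0.039.

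**Figure D5:**
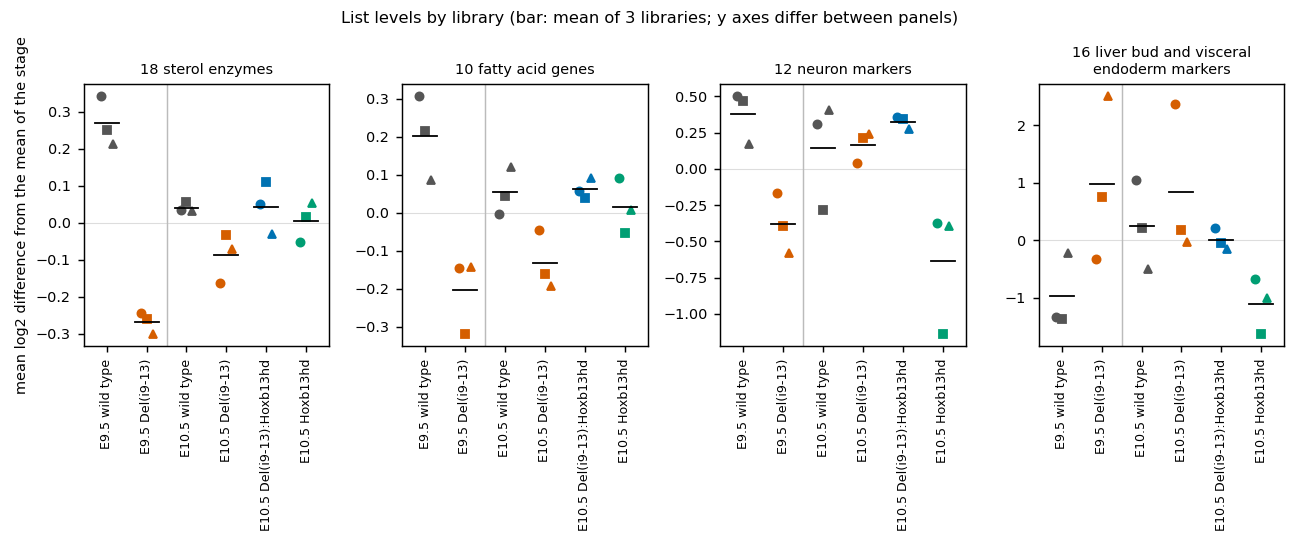
Mean log2 level of 4 gene lists in each of the 18 libraries, relative to the mean of the libraries of the same stage, with the mean of each group as a bar. The y axes differ between panels and the grey line separates the stages. In E9.5 Del(i9-13) the sterol enzymes and the neuron markers are lower than in wild type. In E10.5 Hoxb13hd neuron markers are low and the sterol enzymes lie between −0.053 and 0.053. Stage and library type coincide, and a tie between the lists was not tested.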

How the data were processed

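The deposited table of whole-number counts per Ensembl gene (55141 genes) was used for all tests. Per the submitters' processing notes, the tools were cutadapt 1.18, STAR 2.7.10a and Cufflinks 2.2.1, with mm10. The sources used here do not state how reads were counted (program, strand, annotation). Values of overlapping genes and of close paralogs such as Scd1 and Scd2 are therefore uncertain. The deposited FPKM table (55138 genes), which the authors made per transcript length, served for levels between genes. Groups came from the sample titles, and 0 sample columns were left unused.

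Counts were fitted with edgeR 4.0.16 in R 4.3.3 (filterByExpr with a minimum count of 10 and a total of 15, TMM scaling, robust quasi-likelihood), separately for the 6 E9.5 and the 12 E10.5 libraries, with Benjamini-Hochberg adjustment over all genes tested and a threshold of 0.05. Standard errors were the log2 fold change over the root of F. List levels are means of log2(CPM + 0.5). In simulated counts 100 genes were changed 2-fold and 100 others 1.5-fold at each stage, all with a mean above 5 CPM. Of these changes this design recovered 93% and 62% in counts of 15836 genes at E9.5. At E10.5 it recovered 95% and 64% in counts of 16960 genes. Recovery at lower levels was not tested. False calls were 24 at E9.5 (13.4% of calls, above the threshold's 5%) and 6 at E10.5 (3.64%). Alternatives used DESeq2 1.42.0, limma 3.58.1 on log2(FPKM + 0.1) or log2(FPKM + 1), other scaling or filters, Xist as a covariate, the replicate number as a block, and leaving out each library. Libraries of a group differed by more than sampling noise, so none was a repeat deposit. Gene positions are those of GENCODE M21, and promoters those of RefSeq.

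The members and all gene lists were chosen with earlier results of these data known. Values in every library are given for the 12 members with the smallest p at E9.5, the 5 with the smallest p for Del(i9-13) at E10.5, members called at E10.5, and Insig1, Srebf1, Srebf2 and Scap. Other members with library values in 1 or more comparisons (Hmgcs1, Fasn and Ebp) were chosen after their values were seen. Single values of some further sterol genes are not reported here.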

Additional observations from a re-analysis of the deposited data

How the results depend on the processing

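For Del(i9-13) against wild type the members' median was below 0 at both stages in every alternative run, and its size and the calls varied. At E9.5 20 members were called, and 20 also with RLE scaling or a filter at 1 CPM. DESeq2 called 26, all lower, beside 1.24% of all genes called lower. There were 27 without a filter, 14 with each filtered limma fit and 14 with Xist as a covariate. Limma on unfiltered log2(FPKM + 0.1), which tested 27392 genes, called 3, and fits without 1 library called 13 to 17. These E9.5 counts are a description, since this contrast chose the members. The E9.5 median was −0.54 with Xist as a covariate and −0.50 to −0.41 without 1 library. For Del(i9-13) at E10.5, DESeq2 called 4 members, the fit of only the groups compared 0, and fits without 1 library 0 to 4, with medians from −0.14 to −0.11. For Del(i9-13):Hoxb13hd against wild type, DESeq2 called 2 and the fit of only the groups compared 1, and the median was 0.054 with limma on log2(FPKM + 0.1), filtered or not, 0.051 on log2(FPKM + 1), and −0.0056 to 0.044 without 1 library. For Hoxb13hd, DESeq2 called 3, beside 8.35% of all genes in either direction. Each filtered limma fit called 1, which was lower, unfiltered limma 0, the fit with Xist 0, and fits without 1 library 0 to 1. The Hoxb13hd median was −0.083 (limma on log2(FPKM + 0.1), filtered or not) and −0.080 (log2(FPKM + 1)). In hd embryos the deletion's median was 0.13 (filtered or not) and 0.12 in the same fits. For the interaction, DESeq2 called 4, each limma fit 1, and fits without 1 library 0 to 2, with medians of 0.26 and 0.25 in the limma fits and 0.16 to 0.22 without 1 library. In filtered limma fits on log2(FPKM + 0.1) the median of all genes was itself 0.046, −0.033, 0.075 and 0.086 in those 4 comparisons. The cause of these changes was not tested. Most of these fits are given without the share of all genes called, so nothing is read from their number of members called.

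Values of uncalled genes changed sign. At E9.5 Ebp was −0.00048 with Xist and ranged from −0.040 to 0.047 without 1 library, and Acss2 from −0.30 to 0.14. For Del(i9-13) at E10.5, Mvk was 0.033, 0.032 and 0.033 with limma, and Hsd17b7 was 0.0019 with Xist. Without 1 library, Acat2 ranged from −0.17 to 0.042, Pmvk from −0.0035 to 0.098, Hsd17b7 from −0.098 to 0.024, Ebp from −0.20 to 0.014, Dhcr7 from −0.25 to 0.0038, Insig1 from −0.034 to 0.12, Srebf1 from −0.011 to 0.21, Srebf2 from −0.20 to 0.038, Scap from −0.14 to 0.014 and Acss2 from −0.0013 to 0.25.

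Replicate numbers did not pair the libraries: deviations of same-numbered libraries correlated between 0.014 and 0.13 at E9.5 and between −0.26 and 0.18 at E10.5. With the replicate number as a block, 17 members were called at E9.5 (79 genes in all), 1 for Del(i9-13) at E10.5 and 1 for Hoxb13hd, and 0 in the other 3 tests. The share of all genes called with this block at E10.5 is not given, so nothing is read from those counts.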
